A study of Mus musculus with 16 samples.

Results

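Kinase genes that move the terminal phosphate between nucleotides and creatine were followed in the cerebral cortex of mice with mutations in Aifm1, namely the adenylate kinases Ak1, Ak3, Ak4 and Ak5 and the creatine kinases Ckb and Ckmt1. The members are 6 of the 55573 genes counted, found by their Ensembl identifiers, and all 6 passed the filter on low counts in every comparison. The protein of Aifm1, apoptosis-inducing factor, is an NADH-binding flavoprotein anchored in the mitochondrial inner membrane, and assembly of the respiratory chain depends on it. RNA of cortex taken at about postnatal day 180 was sequenced as 16 libraries in 4 groups of 4. Aifm1-KI were mice with a knock-in deletion of residue R200, and Aifm1-WT their littermate wild types. Hq-mut were the Harlequin mutants, and Hq-WT their littermate wild types. No animal was treated. The labels give every sample the strain C57BL/6 and name the Harlequin stock B6CBACa Aw-J/A-Aifm1Hq/J. They do not say whether each library is 1 animal, so a p-value here reflects only how much libraries vary, which may in part be technical. The mutations are carried in every cell of the animal, and a cortex is a mixture of cell types. In such bulk tissue, fewer cells of a type and less RNA per cell cannot be told apart.

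Adenylate kinases exchange phosphate between a pair of ADP molecules, giving ATP and AMP, and so pass on the last energy of ADP and produce the AMP that the kinase AMPK senses. Creatine kinases store the phosphate of ATP on creatine and return it where ATP is used. In neurons and glia the mitochondrial creatine kinase charges creatine next to the respiratory chain, and the cytosolic brain form discharges phosphocreatine near ion pumps and synapses. Ak1 is the main cytosolic adenylate kinase of brain and muscle, and Ak5 is a cytosolic form found mostly in brain. Ak3 is the GTP:AMP phosphotransferase of the mitochondrial matrix, and Ak4 is a matrix relative linked to metabolic stress. Ckb is the cytosolic brain-type creatine kinase, and Ckmt1 is the ubiquitous mitochondrial form of the intermembrane space, the compartment that also holds the Aifm1 protein.

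A pair of the genes has near-identical processed pseudogenes elsewhere in the genome, which bears on what a 51-base read can tell. The Ckb copy Gm12892 aligned to the Ckb transcript over 1143 bases at 97.29% identity, and the Ak4 copy Ak3l2-ps aligned over 672 bases at 99.55%. The first 102 coding bases are shown beside the matching stretch of each copy, on GRCm38 (mm10), with capitals at the bases that differ between gene and copy. Ckb lies at chr12:111671857-111671958 (minus strand), Gm12892 at chr4:122008193-122008294 (plus), Ak4 at chr4:101419821-101419922 (plus) and Ak3l2-ps at chr2:72633936-72634037 (plus).
Ckb: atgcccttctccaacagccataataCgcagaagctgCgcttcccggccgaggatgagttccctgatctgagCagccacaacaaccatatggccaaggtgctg
Gm12892: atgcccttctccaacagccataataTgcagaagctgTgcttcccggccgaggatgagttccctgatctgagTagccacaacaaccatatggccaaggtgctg
Ak4: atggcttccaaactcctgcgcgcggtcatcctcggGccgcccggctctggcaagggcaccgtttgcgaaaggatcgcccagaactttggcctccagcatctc
Ak3l2-ps: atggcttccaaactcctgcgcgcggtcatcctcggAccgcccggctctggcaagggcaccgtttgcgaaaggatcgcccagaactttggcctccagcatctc
Ckb and Gm12892 differ at 3 of these 102 bases, and Ak4 and Ak3l2-ps at 1. Of all 51-base windows of the Ckb transcript, 21.31% also occur exactly in Gm12892 or in the smaller copies Ckb-ps1 and Ckb-ps2. For Ak4, 11.23% of windows occur exactly in Ak3l2-ps. None of the windows of Ak1, Ak5 or Ckmt1 occurred in an annotated gene elsewhere. In Ak3, 11.02% of windows lie in genes that overlap it on the opposite strand, chiefly Cdc37l1, with which it shares 430 exonic bases, and without a stated strand setting their reads cannot be told apart.

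Per length of a coding transcript, the creatine kinases were the most abundant of the 6 transcripts. Levels are counts scaled to library size (CPM) with TMM factors over the 16 libraries, and for comparing genes they were divided by the length of 1 coding transcript per gene. Ckb had a median of 349 CPM per kb over the 16 libraries, with a range of 245 to 553, and Ckmt1 a median of 101 with a range of 78.8 to 144. Ak5 followed at 45.4 CPM per kb (36.4 to 74.3) and Ak1 at 43.8 (37.9 to 69.8). Ak3 was at 32.5 CPM per kb (29.6 to 36.3) and Ak4 at 9.19 (5.25 to 11.7). On this scale every library of Ckb lay above every library of Ckmt1, and the ranges of Ckmt1 and Ak5, of Ak1 and Ak3, and of Ak3 and Ak4 did not overlap either. Ak5 and Ak1 were the neighbours that overlapped, and Ak1 had the higher group mean in Hq-mut and Aifm1-WT. Divided by the length of all merged exons instead, the group means had the same order, with Ak5 above Ak1 in all 4 groups. Single libraries did not separate as well on that scale. Ak5 was above Ckmt1 in Aifm1-KI 2 (72.5 against 51.1 CPM per kb) and Aifm1-KI 4 (66.6 against 54.0). The ranges of Ak1 and Ak3 overlapped too, with Ak1 at 30.5 in Aifm1-KI 2 and Ak3 at 32.7 in Hq-WT 3. The muscle forms Ckm and Ckmt2 averaged 0.148 and 0.14 CPM over the libraries, at or near the limit that a count of 0 allows (3 counts, or 0.0922 to 0.281 CPM by library).

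Ak3 was the steadiest of the 6 across libraries, and by standard deviation Ak5 was the most variable, closely followed by Ckb. The standard deviation of log2 CPM over the 16 libraries was 0.07 for Ak3 and 0.31 for Ak5, with Ckb at 0.29, Ak4 at 0.26, Ckmt1 at 0.24 and Ak1 at 0.21. By the ratio of the highest to the lowest library, Ckb (2.26) and Ak4 (2.22) exceeded Ak5 (2.04). Ak3 lay between 83.0 and 102.1 CPM in all 16 libraries.

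**Figure D1:**
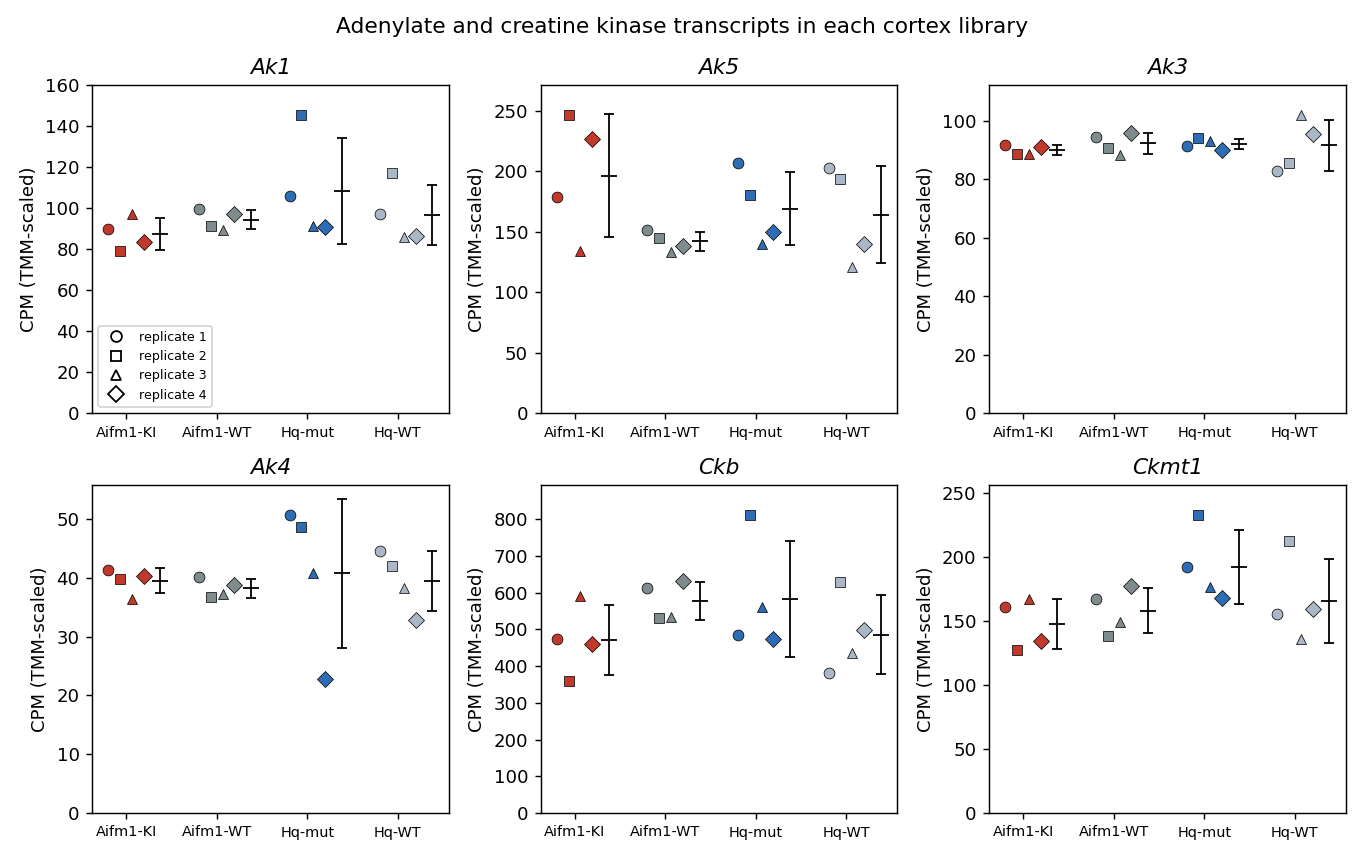
CPM (TMM-scaled, linear axis from 0) of each kinase transcript in every library, by group; symbols give the replicate number, and the bar to the right of each group gives the mean and SD of 4 libraries. Ak3 lies between 83.0 and 102.1 CPM throughout, Ak5 is at 246.9 and 226.8 CPM in Aifm1-KI 2 and 4, and Ak4 of Hq-mut 4 is at 22.9 CPM.

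Whether the mutations alter these transcripts was asked in each line against its own littermates. The targeted gene Aifm1 (chromosome X, 48474944 to 48513563, minus strand) was at 3.32 ± 0.79 CPM in Hq-mut and 23.9 ± 1.25 CPM in Hq-WT (SD, n = 4 each), which is -2.87 on the log2 scale with an SE of 0.19 (edgeR adjusted p = 0.000348). In the knock-in line it was at 23.7 ± 1.84 CPM in Aifm1-KI and 22.7 ± 0.81 CPM in Aifm1-WT (SD, n = 4 each; edgeR adjusted p = 0.679). A deletion of 1 codon leaves a gene count as it is, so the counts do not check the knock-in label. Libraries held 10671580 to 32551594 counts. All 10 excitatory neuron markers were detected in every group, as were all 10 astrocyte and all 10 oligodendrocyte markers. Some libraries also stood apart in markers of other tissues. The mean log2 CPM of 10 striatal markers was 5.19 in Aifm1-KI 2, 5.05 in Aifm1-KI 4 and 5.69 in Hq-mut 3, against 3.29 to 4.18 in the other libraries, and that of 8 choroid plexus markers was 5.27 in Aifm1-KI 2 and 5.14 in Hq-WT 2, against -1.13 to 3.18 in the others. Aifm1-WT 1 and 2 stood apart in 9 liver markers, all detected in each group. The mean log2 CPM there was 3.85 and 4.11, and the sum 273.5 and 310.0 CPM. In the other 14 libraries the mean log2 CPM was -2.6 to 0.812 and the sum at most 32.6 CPM. With Aifm1-WT 1 and 2 left out, an alternative chosen after seeing the data, 0 of 6 kinases passed in each comparison that uses that group, and the log2 fold changes in Aifm1-KI were 0.54 for Ak5 and -0.30 for Ckb.

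In Aifm1-KI cortex, none of the 6 kinase transcripts passed the test against Aifm1-WT (0 of 6 members by edgeR, DESeq2 and limma-voom; 0% of 18383 genes passed by edgeR, 0 by limma-voom and 82 by DESeq2). At an unadjusted p under 0.05 the edgeR test had 1 member, Ak5, among 2094 genes (11.4%). All 6 members overlapped between the groups, as did most genes (4.87% did not, in either direction). The median log2 fold change of the 6 was -0.05, against 0.01 over all genes tested.

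Ak5 (chromosome 3, 152462815 to 152668360, minus strand), the brain adenylate kinase, had the largest difference of the 6 in this line. It was at 178.9, 246.9, 133.9 and 226.8 CPM in Aifm1-KI 1 to 4, against 151.6, 144.7, 133.2 and 138.6 CPM in Aifm1-WT 1 to 4. Of the Aifm1-KI libraries, 3 lay above all Aifm1-WT libraries, and Aifm1-KI 3 lay among them. The log2 fold change was 0.48 ± 0.16 (SE), or 1.40-fold with a 95% interval of 1.09 to 1.79, at an unadjusted p of 0.0131 and an edgeR adjusted p of 0.368.

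The Aifm1-KI libraries with high Ak5 were those with high striatal markers. They also held the most counts of their group, 32551594 in Aifm1-KI 2 and 22293956 in Aifm1-KI 4. Aifm1-KI 1 held 18402715 and Aifm1-KI 3 held 11671853, so the order by total counts was that of Ak5. The 10 striatal markers, all detected in each group, summed to 264.9 to 641.3 CPM in Aifm1-KI and 226.7 to 277.3 CPM in Aifm1-WT. When Aifm1-KI 2 and 4 were left out, the Ak5 log2 fold change was 0.16 (edgeR adjusted p = 0.877), and without Aifm1-KI 3 it was 0.62 (edgeR adjusted p = 0.0529). Over all alternatives its adjusted p ran from 0.0529 to 0.877. Among Hq-mut libraries the order differed: Hq-mut 3 had the highest striatal marker level of all libraries and 139.9 CPM of Ak5, the lowest value of Hq-mut. Hq-WT 3, which shares its number, had a striatal level of 3.34 and 120.9 CPM of Ak5, the lowest of Hq-WT. Within same-numbered pairs, Hq-mut minus Hq-WT, the Ak5 log2 difference was 0.03, -0.105, 0.21 and 0.10 for numbers 1 to 4. The parts of striatal tissue and of library size in the Ak5 values were not tested.

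**Figure D2:**
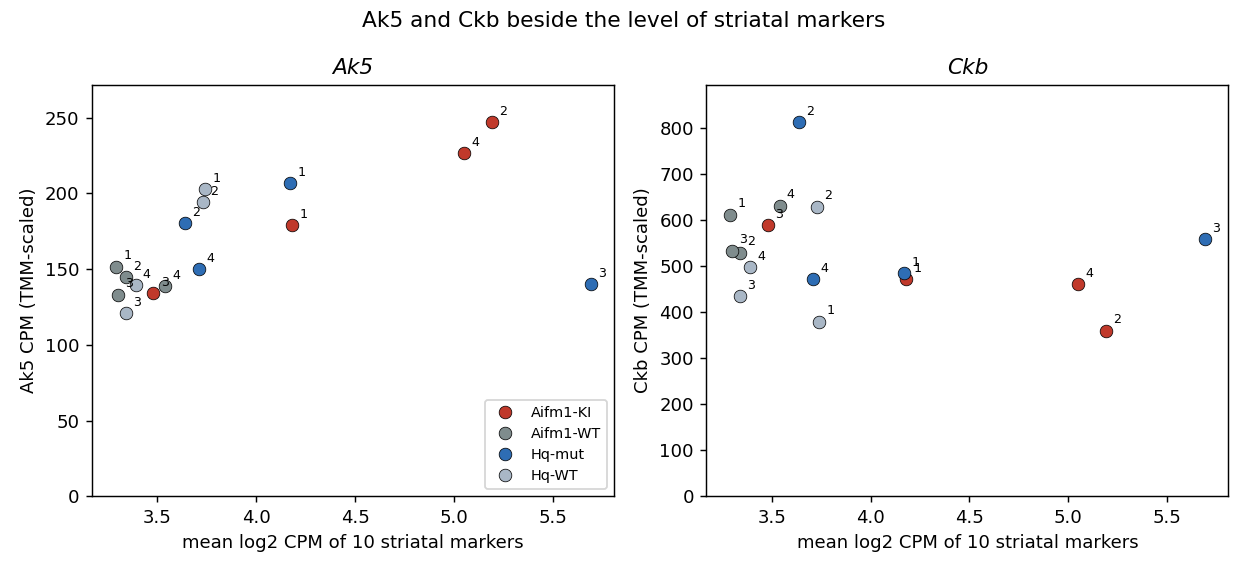
Ak5 (left) and Ckb (right) CPM of each library against the mean log2 CPM of 10 striatal markers; colours give the group and numbers the replicate. Aifm1-KI 2 and 4 combine the 2 highest Ak5 values with striatal levels of 5.19 and 5.05, while Hq-mut 3, at 5.69, has 139.9 CPM of Ak5. Hq-WT 3, of the same number, is at 3.34 and has 120.9 CPM.

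Ckb (chromosome 12, 111669361 to 111672338, minus strand), the cytosolic creatine kinase, was at 472.8, 360.3, 590.6 and 460.7 CPM in Aifm1-KI 1 to 4, against 612.7, 530.0, 534.3 and 632.3 CPM in Aifm1-WT 1 to 4. Of the Aifm1-KI libraries, 3 were below all Aifm1-WT libraries, and Aifm1-KI 3, the one with the lowest Ak5 and striatal levels of its group, was above 2 of them. The log2 fold change was -0.28 ± 0.13 (SE; 0.824-fold, 95% interval 0.671 to 1.01; edgeR adjusted p = 0.46). Without Aifm1-KI 2 and 4 it was -0.11, and without Aifm1-KI 3 it was -0.42 at an edgeR adjusted p of 0.0886 (0.0886 to 0.932 over all alternatives). Excitatory neuron markers were also lowest in Aifm1-KI 2 and 4, at a mean log2 CPM of 6.67 and 7.45 against 7.81 to 8.07 in the other 14 libraries. By summed CPM Aifm1-KI 2 was again lowest, at 5178. Aifm1-KI 4, at 6664, lay between Aifm1-KI 1 (6458) and Aifm1-KI 3 (6762). Oligodendrocyte markers were at a mean log2 CPM of 6.32 and 6.77 in Aifm1-KI 2 and 4, against 7.23 to 7.68 across Aifm1-WT libraries. Similarly low levels occurred in the Harlequin line, with 6.49 to 7.73 in Hq-mut and 6.32 to 7.85 in Hq-WT. Aifm1-KI 2 and 4 also held the most counts of their group and Aifm1-KI 3 the fewest, the reverse of the Ckb order. The parts of either cell type and of library size in the Ckb values were not tested.

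Ckmt1 (chromosome 2, 121357714 to 121363737, plus strand), which charges creatine at the mitochondrion, was at 161.0, 127.6, 167.2 and 134.7 CPM in Aifm1-KI 1 to 4, against 166.9, 138.4, 149.1 and 177.6 CPM in Aifm1-WT 1 to 4. The groups overlapped, at a log2 fold change of -0.09 ± 0.11 (SE; 95% interval 0.801- to 1.11-fold). Within a library, Ckmt1 had 28.3 to 35.4 counts per 100 Ckb counts in Aifm1-KI and 26.1 to 28.1 in Aifm1-WT, ranges that did not overlap. The nearest values, 28.3 in Aifm1-KI 3 and 28.1 in Aifm1-WT 4, were closer than the counting error of the 1995 Ckmt1 counts in Aifm1-KI 3 (2.24%). This ratio does not depend on scaling, and it was looked at after the values were seen. How often ratios of other gene pairs separate in this way was not computed.

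Among the adenylate kinases, Ak1 (chromosome 2, 32621758 to 32635058, plus strand) averaged 87.4 ± 8.01 CPM in Aifm1-KI and 94.3 ± 4.67 CPM in Aifm1-WT (SD, n = 4 each), with a 95% interval of 0.836- to 1.04-fold. Without Aifm1-KI 2 and 4, the small negative log2 fold changes of Ak1 and Ckmt1 became 0.00 and 0.07. The matrix form Ak3 (chromosome 19, 29020833 to 29047961, minus strand) averaged 90.1 ± 1.60 CPM in Aifm1-KI and 92.4 ± 3.56 CPM in Aifm1-WT. Its 95% interval, 0.916- to 1.06-fold, was the narrowest of the 6. Ak4 (chromosome 4, 101419277 to 101466995, plus strand) averaged 39.5 ± 2.14 CPM in Aifm1-KI and 38.2 ± 1.57 CPM in Aifm1-WT, with an interval of 0.955- to 1.14-fold.

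**Figure D3:**
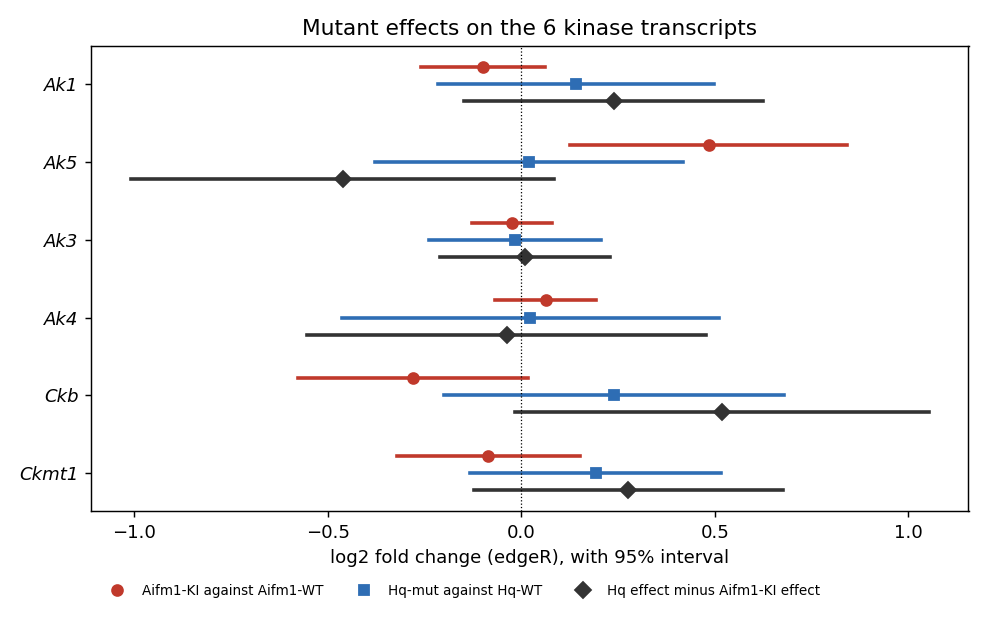
Log2 fold changes (edgeR) of the 6 kinase transcripts with 95% intervals: Aifm1-KI against Aifm1-WT (red circles), Hq-mut against Hq-WT (blue squares) and the Hq effect minus the Aifm1-KI effect (black diamonds). In these fits without the replicate block, every interval holds 0 except that of Ak5 in Aifm1-KI (0.13 to 0.84), and no effect passed the adjusted test.

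In Hq-mut cortex, where Aifm1 itself was at 0.137 times its level in Hq-WT, none of the 6 kinase transcripts passed the test either (0 of 6 members by edgeR, DESeq2 and limma-voom; 0.0167% of 17969 genes, or 3, passed by edgeR). At an unadjusted p under 0.05 there were 0 members among 385 genes (2.14%), and with the replicate number as a block 2 of 6, Ckb and Ckmt1, among 7.97% of genes. The groups overlapped for all 6 members, while 1.58% of genes did not overlap in either direction. The median log2 fold change of the 6 was 0.08, against 0.01 over all genes tested.

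The 4 libraries of Hq-mut and of Hq-WT deviated together by replicate number, and Ak5 had the same order by number in both groups. Ak5 was at 206.9, 180.4, 139.9 and 150.0 CPM in Hq-mut 1 to 4, against 202.6, 194.0, 120.9 and 139.6 CPM in Hq-WT 1 to 4. The libraries numbered 1 and 2 were at 180.4 CPM or above and those numbered 3 and 4 at 150.0 CPM or below, in mutant and wild type alike. With the replicate number as a block, the Ak5 log2 fold change was 0.03 ± 0.07 (SE), against 0.02 ± 0.18 without it.

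Ckb was at 484.8, 813.4, 559.9 and 472.9 CPM in Hq-mut 1 to 4, against 380.0, 630.1, 434.7 and 497.6 CPM in Hq-WT 1 to 4. The library numbered 2 was the highest in both groups. Within pairs of the same number, the log2 difference was 0.35, 0.37, 0.37 and -0.07. The log2 fold change was 0.24 ± 0.20 (SE; 1.18-fold, 95% interval 0.871 to 1.60; edgeR adjusted p = 1), and with the block it was 0.23 ± 0.09 (unadjusted p = 0.0341, edgeR adjusted p = 0.616).

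Ckmt1 was at 192.0, 233.3, 176.5 and 167.7 CPM in Hq-mut 1 to 4, against 155.6, 212.4, 135.7 and 159.2 CPM in Hq-WT 1 to 4. It was higher in Hq-mut in 4 of 4 pairs, as was Ak1, and 11.9% of all genes tested had that pattern. The Ckmt1 log2 fold change was 0.19 ± 0.15 (SE; 95% interval 0.913- to 1.43-fold), and with the block 0.20 ± 0.07 (unadjusted p = 0.0274, edgeR adjusted p = 0.591). Ckmt1 counts per 100 Ckb counts ran from 28.7 to 39.6 in Hq-mut and from 31.2 to 40.9 in Hq-WT.

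Ak1 was at 106.2, 145.6, 91.2 and 91.0 CPM in Hq-mut 1 to 4, against 97.0, 117.4, 86.2 and 86.3 CPM in Hq-WT 1 to 4. Again the library numbered 2 was the highest in each group, and the pair differences were 0.08 to 0.31 on the log2 scale. The log2 fold change was 0.14 ± 0.16 (SE; 95% interval 0.862- to 1.41-fold). With Hq-mut 2 alone left out, the log2 fold change was -0.02 for Ak1, 0.05 for Ckb and 0.10 for Ckmt1, but Hq-WT 2, the highest wild type of all 3 genes, then had no partner. With both libraries numbered 2 left out, it was 0.08 for Ak1, 0.19 for Ckb and 0.23 for Ckmt1, close to the full values for Ckb and Ckmt1.

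**Figure D4:**
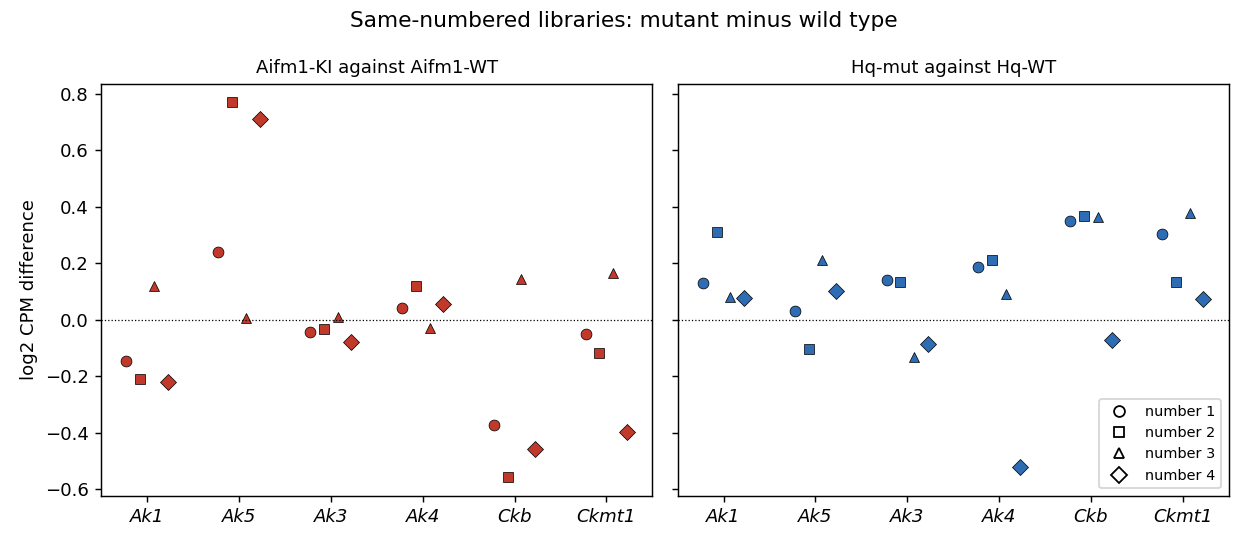
Log2 CPM of the mutant library minus that of the wild-type library of the same number, for each kinase transcript, in the Aifm1-KI line (left) and the Harlequin line (right). In the Harlequin line Ak1 and Ckmt1 are above 0 in 4 of 4 pairs and Ckb in 3 of 4, and Ak4 of the pair numbered 4 is at -0.52. In the Aifm1-KI line numbers did not pair the libraries. There Ak1, Ak3, Ckb and Ckmt1 are above 0 for number 3 alone, and Ak5 is at 0.24, 0.77, 0.007 and 0.71 for numbers 1 to 4.

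The matrix adenylate kinases, like Ak5, had log2 fold changes close to 0 in the Harlequin line. Ak3 averaged 92.2 ± 1.76 CPM in Hq-mut and 91.6 ± 8.83 CPM in Hq-WT (SD, n = 4 each), with a 95% interval of 0.848- to 1.15-fold. Ak4 was at 50.8, 48.6, 40.9 and 22.9 CPM in Hq-mut 1 to 4, against 44.7, 42.0, 38.4 and 32.9 CPM in Hq-WT 1 to 4. The library numbered 4 was the lowest of both groups, and that of Hq-mut was the lowest of all 16. The Ak4 log2 fold change was 0.02 ± 0.22 (SE; 95% interval 0.725- to 1.43-fold), and without Hq-mut 4 it was 0.22 (edgeR adjusted p = 1).

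Ckb, Ckmt1 and Ak1 also went together across the 16 libraries. Pearson's r of log2 CPM was 0.90 for Ak1 and Ckmt1, 0.758 for Ckb and Ckmt1 and 0.756 for Ak1 and Ckb, and 0.0101 for Ak5 and Ckmt1. These are descriptions over libraries that share line and replicate number, with no test. Of 10294 protein-coding genes with a mean log2 CPM of at least 3, those most like Ak1 were Rab3a, a synaptic vesicle GTPase (r = 0.968), the glycolytic enzyme Aldoa (0.967) and Apbb1, an adaptor that binds the amyloid precursor protein (0.966). Ckmt1 was most like the tubulin Tuba4a (0.958), Ndel1 (0.954) and Rbbp4 (0.951), and Ckb most like Cisd3, a mitochondrial iron-sulfur protein (0.935), Ccdc124 (0.932) and Gle1 (0.927). Ak5 was most like Ripor2 (0.951), Dcaf12l1 (0.942) and the growth cone protein Gap43 (0.942). The nearest genes to Ak4 were Dpf1 (0.848), the somatostatin receptor Sstr2 (0.842) and Fxyd6 (0.831), and those to Ak3 were the fatty acid desaturase Fads1 (0.85), glutamine synthetase Glul (0.799) and Inppl1 (0.79).

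The promoters of the creatine kinases are shown because both transcripts were abundant and went together, and because of the 5 kinases with a promoter entry in RefSeq (all but Ak5; the 5′-most entry of each) they were the ones with a TATA box. The 250 bases before the transcript start of the RefSeq entry are printed on GRCm38.p6, with capitals where either strand matched the TATA box (TATAAA), the box named CCAAT after its letters, or the GC box (GGGCGG): Ckb at chr12:111672339-111672588 (minus strand) and Ckmt1 at chr2:121357526-121357775 (plus strand).
Ckb promoter: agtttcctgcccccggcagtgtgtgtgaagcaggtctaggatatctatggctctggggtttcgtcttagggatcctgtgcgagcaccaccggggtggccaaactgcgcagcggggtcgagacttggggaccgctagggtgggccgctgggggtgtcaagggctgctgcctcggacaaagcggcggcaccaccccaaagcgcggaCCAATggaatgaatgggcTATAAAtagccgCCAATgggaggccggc
Ckmt1 promoter: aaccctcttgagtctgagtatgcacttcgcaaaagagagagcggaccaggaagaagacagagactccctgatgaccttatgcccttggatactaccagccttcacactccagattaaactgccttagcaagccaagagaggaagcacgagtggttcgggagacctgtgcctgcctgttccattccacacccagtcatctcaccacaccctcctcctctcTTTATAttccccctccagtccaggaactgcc
The Ckb stretch holds 1 TATA box and 2 CCAAT boxes, and the Ckmt1 stretch 1 TATA box, on the opposite strand. The stretch of Ak1, whose levels also went with those of both, has no match to any of these boxes. In the gene coordinates given above, from GENCODE M21, Ckmt1 starts at 121357714, inside its printed stretch. The TATA box of Ckmt1 therefore lies before the RefSeq start but after the GENCODE start. Of 32851 mouse promoters of this length, 12.4% held the TATA box, 33.8% the CCAAT box and 32.7% the GC box. A match is a description of the letters, and the expression data do not test it.

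Whether the mutations differ in their effects was asked in 1 fit of all 16 libraries, as the Hq effect minus the Aifm1-KI effect. None of the 6 kinase transcripts passed (0 of 6 members by edgeR, DESeq2 and limma-voom; 0.0105% of 19129 genes passed by edgeR), and 0 of 6 had an unadjusted p under 0.05, against 5.08% of all genes. Ckb had the largest value, 0.52 ± 0.25 on the log2 scale (SE; 1.43-fold, 95% interval 0.989 to 2.07; edgeR adjusted p = 0.946). With the replicate block it was 0.53 ± 0.16 (unadjusted p = 0.00709, edgeR adjusted p = 0.403). In that fit 4 of 6 members had an unadjusted p under 0.05, against 10.9% of all genes, and 0 of 6 passed the adjusted test. The other 3 were Ak5 at -0.41 ± 0.16 (unadjusted p = 0.028, edgeR adjusted p = 0.434), Ckmt1 at 0.29 ± 0.12 (unadjusted p = 0.0406, edgeR adjusted p = 0.453) and Ak1 at 0.23 ± 0.10 (unadjusted p = 0.0443, edgeR adjusted p = 0.454). The block takes in both lines, although numbers paired the libraries of the Harlequin line alone. Without the block, Ak5 had the opposite sign to Ckb, -0.46 ± 0.26 (SE; 0.726-fold, 95% interval 0.498 to 1.06). Ckmt1 was at 0.28 ± 0.19 and Ak1 at 0.24 ± 0.18, while Ak3 at 0.01 ± 0.10 and Ak4 at -0.04 ± 0.24 were closest to 0.

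The levels outside the mutants were compared between the littermate wild types. Line, stock and any processing by line cannot be told apart here. None of the 6 kinase transcripts passed between Hq-WT and Aifm1-WT (0 of 6 members by edgeR, DESeq2 and limma-voom and 0 of 6 at an unadjusted p under 0.05; 0.558% of 18106 genes passed by edgeR, and 12.7% had an unadjusted p under 0.05). The groups overlapped for all 6 members, while 7.28% of genes did not overlap in either direction. Ckb averaged 485.6 ± 107.6 CPM in Hq-WT and 577.3 ± 52.8 CPM in Aifm1-WT (SD, n = 4 each), which is -0.26 ± 0.13 on the log2 scale (SE), with an edgeR adjusted p of 0.449. Ak5 averaged 164.3 ± 40.2 CPM in Hq-WT and 142.0 ± 7.91 CPM in Aifm1-WT (log2 fold change 0.20 ± 0.14, SE). The other 4 kinases had log2 fold changes of -0.02 (Ak3) to 0.06 (Ckmt1).

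The level counted for the Ckb pseudogene was higher in every Hq-WT library than in any Aifm1-WT library, whereas Ckb overlapped between them. Whether the reads counted for the copy came from it or from Ckb was not tested. Gm12892 (chromosome 4, 122008193 to 122009338, plus strand) was at 92.9, 113.2, 107.5 and 123.8 CPM in Hq-WT 1 to 4, against 84.1, 72.5, 74.7 and 87.7 CPM in Aifm1-WT 1 to 4. Such a separation, with Hq-WT higher, was found in 2.69% of genes tested. The log2 fold change was 0.45 with an SE of 0.10, at an edgeR adjusted p of 0.069 and a DESeq2 adjusted p of 0.00226. Its adjusted p over all alternatives ran from 0.00226 to 0.731, the highest without Aifm1-WT 1 and 2 (log2 fold change 0.435), and edgeR passed 0.05 without the filter on low counts (adjusted p = 0.00862) and without Hq-WT 1 (adjusted p = 0.0482).

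Relative to Ckb within each library, a ratio that no scaling touches, the lines were also separate. There were 16.3 to 25.0 Gm12892 counts per 100 Ckb counts in Hq-mut and 18.0 to 24.9 in Hq-WT, against 12.5 to 14.3 in Aifm1-KI and 13.7 to 14.0 in Aifm1-WT. No library of one line fell in the range of the other. Within the Harlequin line the ratio was 19.2, 16.3, 18.8 and 25.0 in Hq-mut 1 to 4, against 24.5, 18.0, 24.7 and 24.9 in Hq-WT 1 to 4. It was lowest in the library numbered 2 of each group, where Ckb was highest. For numbers 1 to 3, but not 4, it was lower in Hq-mut than in Hq-WT. Gm12892 was chosen for its sequence, and the ratio was looked at after its values were seen. With the counts of the pseudogenes added to Ckb, the Ckb log2 fold change between the wild types was -0.14 (edgeR adjusted p = 0.645), and in the mutant comparisons it was -0.28 for Aifm1-KI and 0.20 for Hq-mut. Ak3l2-ps had few reads, 4.02 to 7.01 per 100 Ak4 counts over the 16 libraries.

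**Figure D5:**
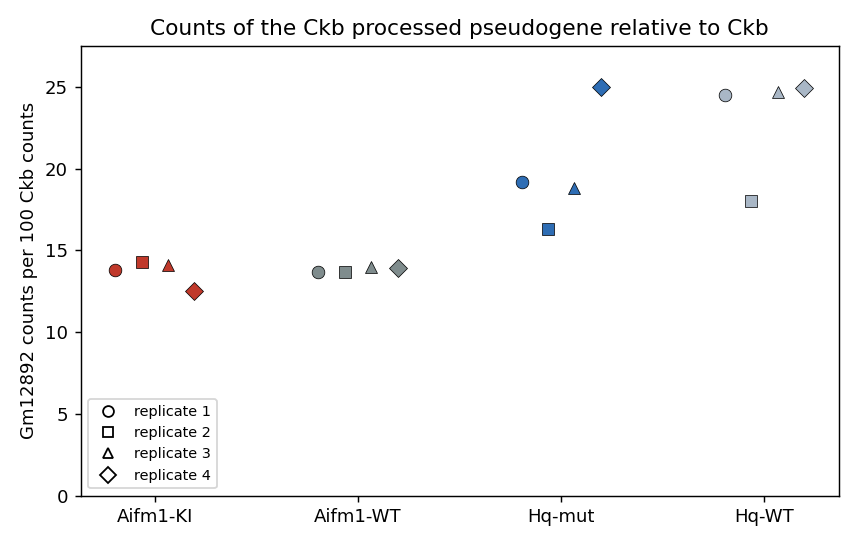
Gm12892 counts per 100 Ckb counts in every library (linear axis from 0), by group; symbols give the replicate number. The 8 libraries of the Harlequin line lie between 16.3 and 25.0 and the 8 of the Aifm1-KI line between 12.5 and 14.3.

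Genes around the kinases were read from 5 lists of their pathway, and 0 genes of these lists passed the edgeR test in either line. DESeq2 and limma-voom were read for the genes named below, and none of those passed there. Of 4 other adenylate kinases, 4 were tested in Aifm1-KI (2 above 0, 2 below, median log2 fold change 0.53) and 3 in Hq-mut (3 above 0, 0 below, median 0.41). Ak9 and Ak7, a nucleotide kinase and an adenylate kinase of motile cilia, had the smallest p of the list in Aifm1-KI. Ak9 was at 0.845, 1.72, 0.251 and 1.48 CPM in Aifm1-KI 1 to 4, against 0.523, 0.323, 0.382 and 0.534 CPM in Aifm1-WT 1 to 4 (log2 fold change 1.42 ± 0.45, SE; unadjusted p = 0.0102, edgeR adjusted p = 0.368). These values rest on 3 to 59 counts per Aifm1-KI library and 7 to 12 per Aifm1-WT library. The 3 counts were those of Aifm1-KI 3, at the limit that a count of 0 allows. As with Ak5, Aifm1-KI 3 was the low library, and without Aifm1-KI 2 and 4 the log2 fold change was 0.44. Ak7 had a log2 fold change of 1.08 ± 0.53 in Aifm1-KI and 0.54 ± 0.72 in Hq-mut, and Ak8 had 0.41 ± 0.33 in Hq-mut. Ak7 also had few counts, 8 to 86 per library in Aifm1-KI, 7 to 54 in Aifm1-WT, 6 to 65 in Hq-mut and 6 to 21 in Hq-WT.

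Of the genes of creatine synthesis and uptake and the muscle creatine kinases, 3 of 5 were tested in each line, with a median log2 fold change of -0.19 in Aifm1-KI (0 above 0, 3 below) and -0.04 in Hq-mut (1 above 0, 2 below). Gatm, the amidinotransferase that starts creatine synthesis, was at 103.0, 57.1, 101.8 and 72.0 CPM in Aifm1-KI 1 to 4, against 119.6, 101.8, 98.4 and 122.6 CPM in Aifm1-WT 1 to 4. Its low libraries were again Aifm1-KI 2 and 4, and the difference was -0.40 ± 0.18 on the log2 scale (SE), with an edgeR adjusted p of 0.438, against -0.10 without them. The creatine transporter Slc6a8 had a log2 fold change of -0.19 ± 0.11 in Aifm1-KI and -0.04 ± 0.09 in Hq-mut, and Gatm had -0.09 ± 0.26 in Hq-mut.

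Of 12 other nucleotide kinases, 11 were tested in each line (7 above 0 and 4 below in Aifm1-KI, median 0.06; 8 above and 3 below in Hq-mut, median 0.10). Adenosine kinase, Adk, had a log2 fold change of -0.16 ± 0.07 (SE; unadjusted p = 0.0449, edgeR adjusted p = 0.43) in Aifm1-KI. The mitochondrial nucleotide kinase Cmpk2 had -0.27 ± 0.13 in Aifm1-KI and 0.18 ± 0.16 in Hq-mut, and the mitochondrial nucleoside diphosphate kinase Nme4 had -0.27 ± 0.27 in Hq-mut. Of 15 genes of AMP sensing and disposal, 13 were tested in each line (5 above 0 and 8 below in Aifm1-KI, median -0.04; 9 above and 4 below in Hq-mut, median 0.04). The AMPK subunit Prkag1 and the AMPK-activating kinase Stk11 had -0.17 ± 0.08 and -0.18 ± 0.09 in Aifm1-KI. In Hq-mut, adenosine deaminase, Ada, had 0.83 ± 0.39 from 12 to 35 counts per Hq-mut library and 4 to 13 per Hq-WT library, and the AMPK catalytic subunit Prkaa2 had 0.23 ± 0.16. Of 9 genes that carry adenine nucleotides across the mitochondrial membranes, 8 were tested in each line (4 above 0 and 4 below in Aifm1-KI, median -0.01; 7 above and 1 below in Hq-mut, median 0.13). The ADP/ATP carriers Slc25a5 and Slc25a4 had -0.16 ± 0.08 and -0.08 ± 0.06 in Aifm1-KI. In Hq-mut, the outer membrane channel Vdac1 had 0.17 ± 0.14 and the ATP-Mg/phosphate carrier Slc25a23 had -0.11 ± 0.10.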

How the data were processed

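RNA of mouse cortex was sequenced as 16 libraries. Per the labels' protocols, RNA was extracted with TRIzol and libraries were made with a KAPA mRNA-seq kit. Per the series' design text, 51-base single-end reads were trimmed, mapped to mm10 with STAR (2.6 in the submitters' processing notes) and counted with htseq-count. The annotation and strand setting were not given in the sources used here. Deposited values are whole-number counts per Ensembl gene that the authors did not normalize. Of 55573 identifiers, 55394 matched a symbol in GENCODE M21 on GRCm38.

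Each comparison was fitted over all genes with edgeR 4.0.16 in R 4.3.3 (TMM, default filter on low counts, quasi-likelihood F-test), and a gene passed at an adjusted p (Benjamini-Hochberg) under 0.05; the scripts were tested on simulated counts. DESeq2 1.42.0, limma-voom 3.58.1, other scaling and filters, a replicate block and fits without single libraries were alternatives, and the pseudogene sums and fits without Aifm1-WT 1 and 2 were added after seeing the data. Deviations of same-numbered libraries correlated at 0.409 to 0.534 in the Harlequin line, so numbers pair those samples; the labels do not say what a number marks. Limits for a count of 0 cover counting error only.

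Members and lists were chosen with earlier results of these data known, and 1 gene of the lists is not reported here. The text names the 6 members, Aifm1, the 2 genes of smallest p per list and line where none was called, and the 3 genes most like each member by Pearson's r of log2 CPM (prior count 2). Copies were found with blastn in GENCODE transcripts, and promoters are from RefSeq.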

Additional observations from a re-analysis of the deposited data

How the results depend on the processing

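No kinase transcript passed the adjusted test in any comparison under any alternative run. The number of genes called over the whole table moved more. In Aifm1-KI it was 0, against 82 with DESeq2 and 0 to 46 with 1 library left out, the 46 without Aifm1-KI 3. In Hq-mut it was 3, against 33 with DESeq2 and the replicate block, 1 without the pair numbered 2, 1 without the pair numbered 3, and 1 to 2 with 1 library left out. For the difference of effects it was 2, against 5 with DESeq2, 1 with limma-voom, 1 without Aifm1-WT 1 and 2, and 1 to 2 with 1 library left out. Between the wild types it was 101, against 560 without the filter on low counts, 421 with DESeq2, 20 without Aifm1-WT 1 and 2, and 32 to 231 with 1 library left out. The causes were not tested.

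The replicate block called 0, 3 and 2 genes in Aifm1-KI, Hq-mut and the difference of effects, as did the fits without it. It changed no call of a kinase. At an unadjusted p under 0.05 it had 2, 2 and 4 of 6 kinases, against 1, 0 and 0 without it. Of all genes tested, 10.9%, 7.97% and 10.9% had such a p with the block, against 11.4%, 2.14% and 5.08% without it. In Aifm1-KI, same-numbered libraries correlated at -0.0255 to 0.0991, so the samples there share only a number.

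Signs turned for small log2 fold changes. In Aifm1-KI without replicates 2 and 4, Ak1 was at 0.000556 and Ckmt1 at 0.0674. In Hq-mut, Ak4 was at -0.0317 with limma-voom, -0.027 with the replicate block, -0.0229 with DESeq2 and the block, and -0.0337 without the pair numbered 2, where Gm12892 was at -0.0539. Without the pair numbered 3, Ak3 was at 0.033, Ak5 at -0.0223, Ak7 at -0.0425 and Gatm at 0.0878. With 1 library left out, the Hq-mut values ran from -0.0184 to 0.253 for Ak1, -0.062 to 0.0484 for Ak3, -0.1 to 0.22 for Ak4, -0.094 to 0.136 for Ak5, -0.0634 to 0.0924 for Gm12892, -0.299 to 0.874 for Ak7 and -0.226 to 0.194 for Gatm. The difference of effects ran from -0.0292 to 0.0923 for Ak3 and -0.158 to 0.168 for Ak4. Between the wild types the ranges were -0.0562 to 0.0802 for Ak1, -0.0808 to 0.0311 for Ak3, -0.0245 to 0.119 for Ak4 and -0.058 to 0.14 for Ckmt1. The other named values kept their sign under the alternatives run.

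Each kinase had at least 415 counts in every library. For Ak3 the spread between libraries was below the counting error of single libraries in Aifm1-KI (a CV of 1.77%, against 1.82% to 3.07%) and Hq-mut (1.91%, against 2.06% to 2.20%), so counting limits its precision there. For Ak4 the CV was 5.42% in Aifm1-KI and 4.10% in Aifm1-WT, little above counting errors of 2.71% to 4.79% and 3.31% to 3.83%.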
